A study of Mus musculus with 12 samples.

Results

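The genes of the cytosolic ribosomal proteins were followed through the growth of a gastric tumour in mice. Members were taken by name from the RefSeq gene table: every gene whose symbol follows the pattern of the small subunit (Rps), the large subunit (Rpl), the stalk proteins Rplp0, Rplp1 and Rplp2, or Rpsa, paralogs included. The rule uses names and no measured value. Of 85 such symbols, 71 had a probe that could be named, out of 8127 named genes in all, and 69 of these were bright enough to be tested. The other 14 (among them Rpl10l, Rpl14, Rpl22, Rpl31, Rpl32l, Rpl32p, Rpl39l, Rpl3l, Rpl5, Rpl6l, Rpl8, Rpl9, and Rplp1) had no named probe and were not analysed here.

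RNA came from the antral part of the stomach of C57Bl/6 mice and was read on 1-colour Illumina bead arrays, 1 array for each of 12 mice. A group of 3 wild-type mice served as controls, labelled as normal antrum with an age of 2 to 6 months; the study's own text is not uniform about their age, which stays uncertain here. The other 3 groups of 3 were CEA424-SV40 TAg mice aged 30, 60 and 90 days, in which the SV40 T antigens are driven by a minimal human CEA promoter, and their samples mixed antral tumour and normal tissue. Age in the transgenic groups thus moves together with tumour load, and the controls are no age series.

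The ribosome is built from ribosomal RNA and a fixed set of small basic proteins, nearly all in 1 copy per particle, so the genes of the set are commonly expressed together at very high levels. Their mRNAs are known for a 5′ terminal oligopyrimidine (TOP) tract, a C followed by further pyrimidines at the very start of the transcript, through which mTORC1 signalling controls their translation. Cells that grow and divide make more ribosomes. Arrays measure mRNA level and not translation.

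For some members that the results turn on, the 30 bases around the annotated start (15 before it and 15 from it) are given below. They are from RefSeq for GRCm38.p6, 5′ to 3′ on the gene's strand, with the longest run of at least 5 C or T in capitals. A run in capitals can lie anywhere in the window and is not by itself a TOP tract. In Rpl6 and Rpl36al it lies wholly before the annotated start, and in Rps12 and Rps23 it begins some bases after it. The first 7 genes passed the test at day 90 against control, and Rps9, Rpl35 and Rpl41 are shown for contrast. They lie at chr4:86857353-86857382 (Rps6, minus strand), chr2:32961697-32961726 (Rpl12, plus), chr5:121204486-121204515 (Rpl6, plus), chr12:69184053-69184082 (Rpl36al, minus), chr13:90923107-90923136 (Rps23, plus), chr10:23787195-23787224 (Rps12, minus), chr3:90213634-90213663 (Rps27, minus), chr7:3704026-3704055 (Rps9, plus), chr2:39005117-39005146 (Rpl35, minus) and chr10:128549154-128549183 (Rpl41, minus).
Rps6: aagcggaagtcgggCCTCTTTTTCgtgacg
Rpl12: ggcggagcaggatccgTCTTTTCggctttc
Rpl6: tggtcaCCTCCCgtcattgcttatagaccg
Rpl36al: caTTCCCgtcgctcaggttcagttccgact
Rps23: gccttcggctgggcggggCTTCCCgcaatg
Rps12: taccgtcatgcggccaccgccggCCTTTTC
Rps27: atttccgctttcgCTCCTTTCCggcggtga
Rps9: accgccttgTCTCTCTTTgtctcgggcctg
Rpl35: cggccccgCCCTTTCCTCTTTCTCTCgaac
Rpl41: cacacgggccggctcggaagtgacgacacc
Among these, the run was longest in Rpl35, at 18 bases, and Rps6 had 10, while Rpl41 had no run of 5 in this window.

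Start windows of 300 bases were held for 53 of the 71 members, in 63 windows. A run of at least 8 C or T within 25 bases of the annotated start, on the gene's strand, stood in 46% of the members' windows and in 19.3% of the 21263 windows of all protein-coding genes. CCGGAAG, the core bound by Ets factors, stood on either strand in 38.1% of the members' windows against 11.6% of all, and ATGGCGG, the core bound by Yy1, in 19% against 5.25%. The reverse complement of the Ets core holds pyrimidines and can overlap the run. The runs stood in 3 of 7 windows of the genes that passed at day 90 and in 24 of 54 windows of those that were tested and did not pass. These matches are descriptions of the letters.

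Signals are given after background correction with an offset and quantile normalization, and a difference is the log2 difference between group means ± its standard error from limma, with Benjamini-Hochberg adjusted p-values over all 22067 probes tested. The probe with the highest mean stood for each gene. The members were among the brightest probes of the arrays: 22 of them were among the 100 brightest of 46116 probes and 50 among the 500 brightest. Rpl41, the smallest protein of the ribosome, was the brightest, with signals between 18248 and 30491, followed by Rps14 and Rpl23. The mean over the 12 arrays was above 1000 for 57 members and between 520 and 919 for 3 more.

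The remaining 11 members had means between 64.9 and 236, among them Rplp0, which anchors the stalk, Rpsa, Rps19, Rps18 and Rplp2. Rps18 and Rplp2 stayed at or below 100 on every array and were not tested. Rplp0 measured 314, 207 and 260 in the controls and 217, 230 and 238 at day 90 (difference -0.17 ± 0.16, adjusted p = 0.514). Rpsa, listed as the laminin receptor as well as a small subunit protein, measured 85.5, 101 and 80.9 in the controls and 96.6, 84.5 and 101 at day 90. Both overlapped between the groups. Probe sequences were not used here, so which transcripts or pseudogene copies a probe takes up was not examined, and levels of different genes are not compared further.

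The family's share of all background-corrected signal lay between 4.27% and 5.05% per array. Members of 1 array tended to lie on the same side of their group means. On the array of day 60 mouse 2, 67 of 69 members were above the group mean, and on that of day 30 mouse 3 only 4 were. The median deviation was 0.11 and -0.17 on the log2 scale on these arrays, the highest and the lowest of the 12 arrays. Of the named genes outside the family, Lhfp, Orc4, Rps3a1 and Simc1 followed the members' median signal most closely over the 12 arrays (Pearson r from 0.90 to 0.92, a description). Rps3a1 is itself a ribosomal protein gene whose symbol falls outside the naming pattern.

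Controls were compared with day 90 first, to ask how far the family changed in the established tumour. A small group of members rose clearly while most of the family moved little. Of the 69 tested, 11 were higher and 0 lower at day 90, which is 15.9%, beside 10.4% of all probes called higher, 9.17% called lower and 19.5% called either way. Among probes with a mean signal above 1000, the level of most members, 13.5% were called higher, 20.6% lower and 34.1% either way. The 58 others did not pass. The share of members called was thus below the background for either direction, and the share called higher was near that of all bright probes.

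Rps6, the small subunit protein that S6 kinases phosphorylate, showed the largest rise. Its signals were 868, 946 and 655 in the controls, 943, 509 and 466 at day 30, 1443, 1947 and 1804 at day 60 and 1838, 2077 and 2555 at day 90. All 6 arrays of days 60 and 90 lay above all 6 of the controls and day 30. The difference at day 90 was 1.39 ± 0.18, a fold of 2.63 (adjusted p = 0.00094).

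Rpl30, a large subunit protein, measured 370, 385 and 308 in the controls, 449, 336 and 299 at day 30, 574, 810 and 795 at day 60 and 680, 822 and 954 at day 90. Again the 2 later ages did not overlap with the controls and day 30. The difference at day 90 was 1.20 ± 0.16, a fold of 2.30 (adjusted p = 0.00112).

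Rpl36al is a paralog of the large subunit gene Rpl36a. Its dim probe gave 138, 133 and 102 in the controls, 149, 92.5 and 92.8 at day 30, 171, 215 and 234 at day 60 and 209, 224 and 224 at day 90. The rise was 0.83 ± 0.14, a fold of 1.77 (adjusted p = 0.00442), and the offset makes folds of such dim probes too small. Rpl36a itself differed by -0.07 ± 0.12 (adjusted p = 0.742).

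Rpl6 and Rpl12, both of the large subunit, the latter at the base of the stalk, rose as well. Rpl6 went from 2512, 2353 and 1757 in the controls to 3447, 3578 and 3805 at day 90, a difference of 0.73 ± 0.15 (adjusted p = 0.0113). Rpl12 went from 2020, 1879 and 1719 to 2770, 2912 and 3366, a difference of 0.69 ± 0.13 (adjusted p = 0.00657). At day 60 Rpl6 lay between, at 2928, 3413 and 3195, while Rpl12, at 2723, 2900 and 2327, overlapped with day 90. Both were above every control at day 60, but neither passed there against control (limma adjusted p = 0.154 for Rpl6 and 0.123 for Rpl12).

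The others called rose by less. Rpl21 had a difference of 0.62 ± 0.15 in the large subunit. In the small subunit, Rps23, which lies at the decoding centre, differed by 0.59 ± 0.17, Rps12 by 0.48 ± 0.13, Rps14, a protein of the platform, by 0.47 ± 0.13 and Rps27, a zinc finger protein, by 0.43 ± 0.12. Their adjusted p-values from limma ran from 0.0228 to 0.0438. In each of these genes the 3 day 90 arrays lay above the 3 controls. In Rps14, which is among the brightest probes, the controls were at 12943, 16276 and 15963 and the day 90 arrays at 21132, 19220 and 21943.

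**Figure D1:**
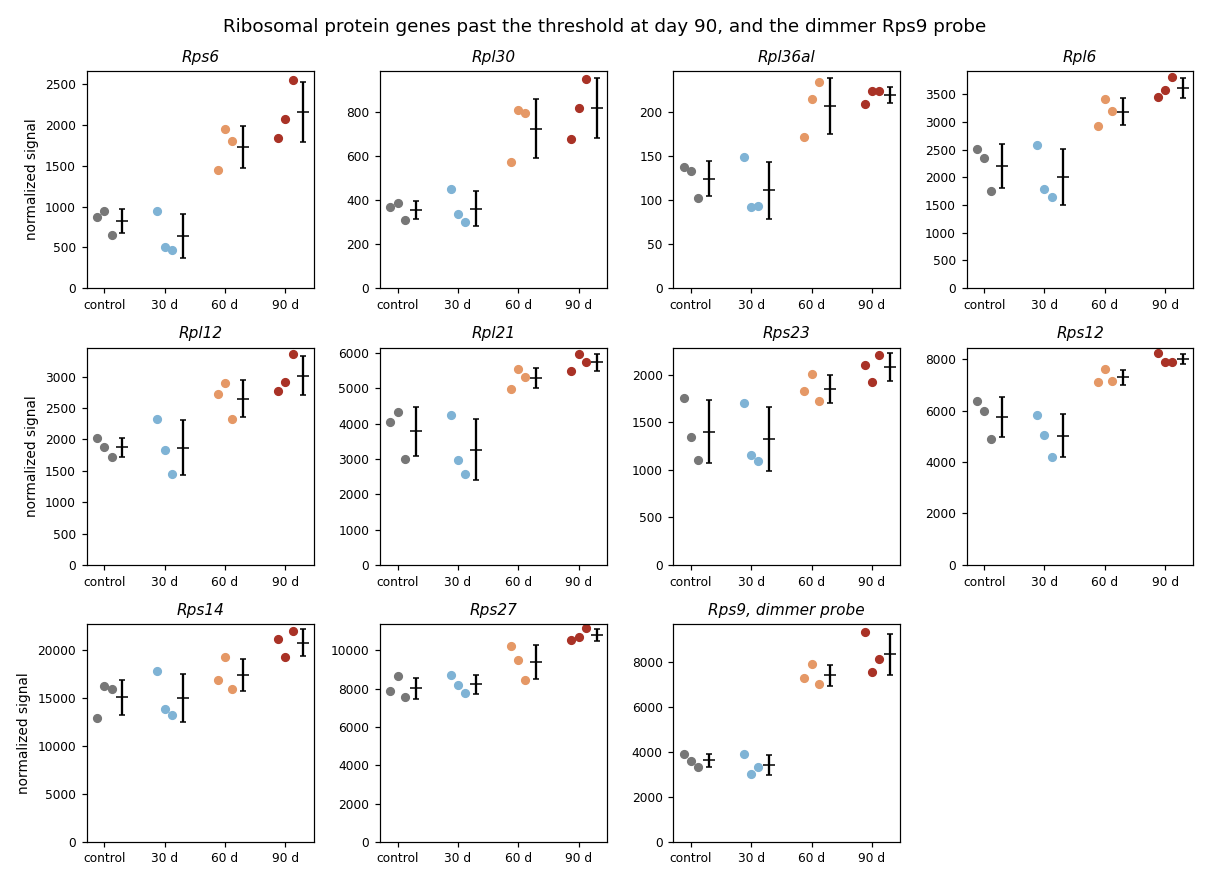
Normalized signal (y axes, linear, from 0) of 10 of the 11 ribosomal protein genes called higher at day 90 and of the dimmer Rps9 probe, by group (x axes: control and transgenic mice of 30, 60 and 90 days). Points are single mice, and the bar beside them is the mean ± SD (n = 3). In Rps6 and Rpl30 the 3 day 60 mice and the 3 day 90 mice lie above all controls.

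By subunit, 6 of 28 small subunit genes, 4 of 37 large subunit genes and 1 of 3 paralogs passed. By level, 6 of the 23 dimmest, 3 of the 23 middle and 2 of the 23 brightest members passed. The members' differences ran from -0.55 in Rpl13a to 1.39 in Rps6. Under quantile normalization the day 90 arrays were all above the controls in 29 members (42.0%, beside 17.9% of all probes). They were all below in 8 (11.6%, beside 19.9%). These counts were not made under other scalings, and the members' signs changed with the scaling. Under quantile normalization 42 differences were above 0 and 27 below. Scaled by the 75th percentile of each array, 24 were above and 44 below, and in the deposited normalized values 27 were above and 37 below.

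Of the members that lay lower, none passed. Rpl13a, which in human monocytes can leave the ribosome to silence mRNAs, measured 1114, 1085 and 1076 in the controls and 1009, 653 and 624 at day 90 (difference -0.55 ± 0.18, adjusted p = 0.0668). It passed as a fall in 1 fit of all 4 groups (adjusted p = 0.0289) and with a trended and robust spread (adjusted p = 0.0425), at the same difference, and without day 90 mouse 1, at -0.77. Rps27l, a paralog of Rps27 that p53 is known to induce, measured 4734, 4333 and 3753 against 3465, 2981 and 3395 (difference -0.38 ± 0.13, adjusted p = 0.0827). Neither overlapped between the groups. Rpl11, which with Rpl5 can bind Mdm2, differed by 0.33 ± 0.12 (adjusted p = 0.0916).

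**Figure D2:**
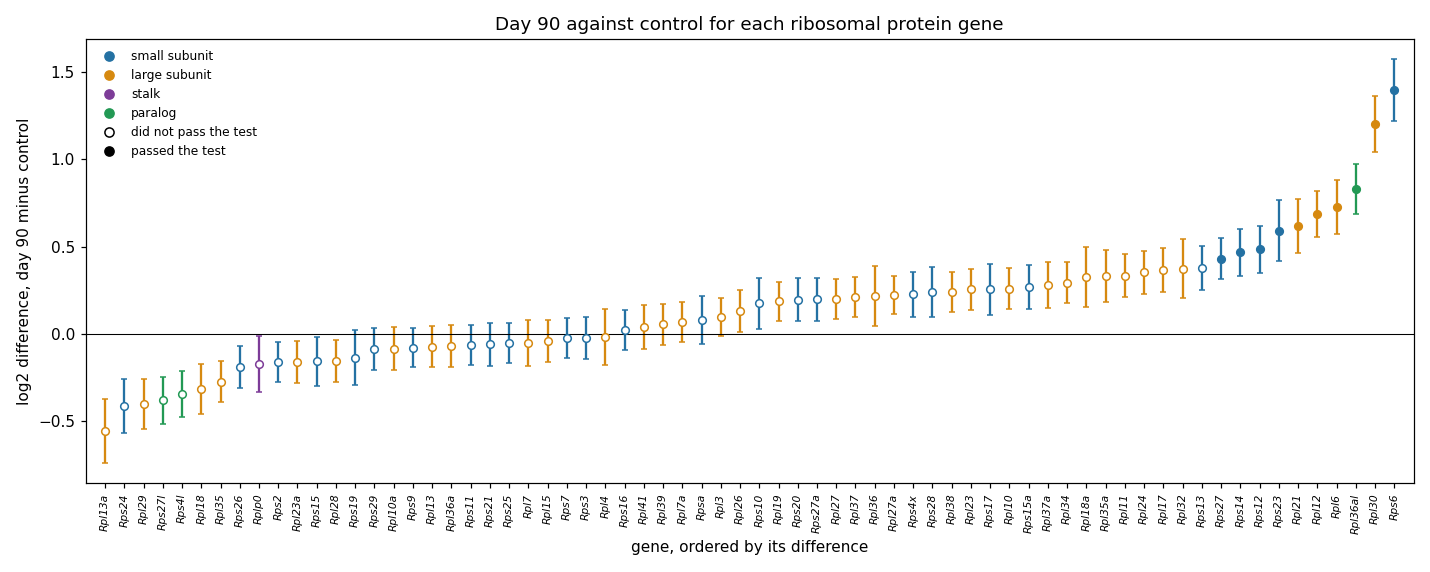
Log2 difference between day 90 and control (y axis, ± standard error, 3 against 3 mice) of 68 of the 69 tested ribosomal protein genes, ordered by size (x axis) and coloured by class. Filled points passed the test; the 10 filled points form the upper end, led by Rps6 at 1.39 and Rpl30 at 1.20, and most members lie between -0.4 and 0.4.

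The direction of the family as a whole depended on how the arrays were brought to 1 scale. Under quantile normalization the members' median difference was 0.18 and that of all probes -0.04. Scaled by the 75th percentile of each array, the members' median was -0.10 and that of all probes -0.12, and in the deposited normalized values they were -0.04 and 0.14. Relative to all probes, the members thus stood 0.22 higher, 0.02 higher and 0.18 lower under these scalings, and no direction is given for the family. The calls moved in the same way: 5 higher and 5 lower under the 75th percentile, and 5 higher and 2 lower in the deposited values.

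The 5 called higher were Rps6, Rpl30, Rpl36al, Rpl6 and Rpl12 under both. Under the 75th percentile their differences were 1.30, 1.26, 0.88, 0.54 and 0.51, and in the deposited values 1.43, 1.48, 1.38, 0.61 and 0.59. Rpl21, Rps23, Rps12, Rps14 and Rps27 passed under neither. The members called lower under the 75th percentile were Rpl35, Rps2, Rps26, Rps27l and Rps29, from -0.41 to -0.57, of which Rpl35 and Rps27l also passed in the deposited values. Whether the length of the pyrimidine runs shown above went with direction was not tested.

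**Figure D3:**
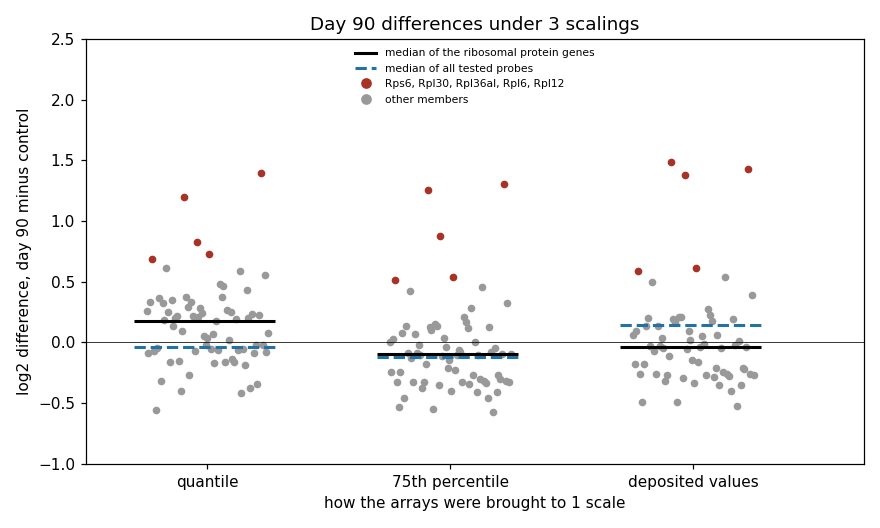
Log2 difference between day 90 and control (y axis) of each tested ribosomal protein gene under 3 ways of scaling the arrays (x axis). The black line is the members' median (0.18, -0.10 and -0.04) and the dashed blue line that of all probes (-0.04, -0.12 and 0.14); Rps6, Rpl30, Rpl36al, Rpl6 and Rpl12, in red, lie above the members' median under each.

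Leaving out 1 array changed how many members passed at day 90 against control. Without control mouse 2 or day 90 mouse 1 the count was 7, of which 1 was a fall without the latter, and without day 90 mouse 2 or day 90 mouse 3 it was 4. Without control mouse 3, 9 rose and 1 fell, and Rps6 differed by 1.24, Rpl30 by 1.10, Rpl36al by 0.69, Rpl12 by 0.63 and Rpl6 by 0.57, all past the threshold.

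Rps9, a small subunit protein, had 2 bright probes that went apart. The brighter one gave 7185, 7391 and 7122 in the controls, 7362, 7660 and 6977 at day 30, 6472, 6688 and 5631 at day 60 and 6977, 6472 and 7105 at day 90, a difference at day 90 of -0.08 ± 0.11 (adjusted p = 0.678). The dimmer one gave 3918, 3606 and 3346 in the controls, 3896, 3010 and 3346 at day 30, 7262, 7898 and 7026 at day 60 and 9340, 7551 and 8131 at day 90. It rose by 1.20 ± 0.13, a fold of 2.30 (adjusted p = 0.000399). The difference between the probes' changes was -1.28 (brighter minus dimmer) with a two-sided exact permutation p of 0.1, the smallest that 20 splits of 3 against 3 mice allow. This test could thus not pass the threshold, and it gave the same p for Rpl17, Rpl21, Rpl23, Rpl27a, Rpl37 and Rps3. Where the probes were averaged, Rps9 rose by 0.56 (adjusted p = 0.0106), so the sign of this gene rests on the choice of probe.

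Of the 8 members with 2 probes, Rpl17, Rpl21, Rpl23, Rpl37 and Rpl38 had a second probe with a mean between 73.1 and 115, near the level of the filter. The second probe of Rps3 gave 3447, 3316 and 2727 in the controls and 4122, 3815 and 4062 at day 90 (difference 0.35 ± 0.13, adjusted p = 0.101), while the brighter one differed by -0.02 ± 0.12. The second probe of Rpl27a lay lower, by -0.39 ± 0.16, and the brighter one higher, by 0.22 ± 0.11, and neither passed. In Rpl21 the called rise was on the brighter probe only, and the dim one differed by -0.11.

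**Figure D4:**
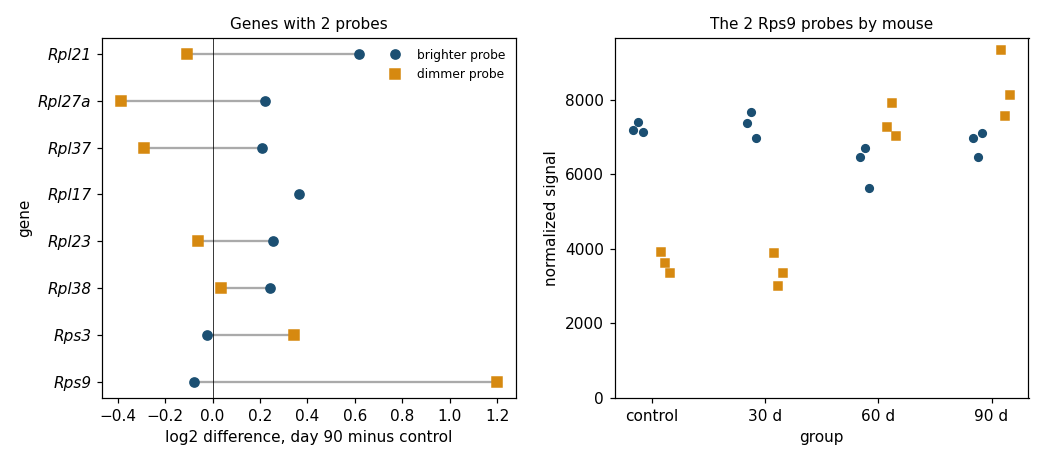
Left, log2 difference between day 90 and control (x axis) of both probes of the 8 members with 2 probes (y axis); the dimmer Rpl17 probe was not tested. Right, normalized signal (y axis) of both Rps9 probes in each of the 12 mice by group (x axis). All day 60 and day 90 mice lie above all controls on the dimmer probe and below all controls on the brighter one; levels of different probes cannot be set against each other.

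The cell make-up of the samples moved strongly with the same comparison, and its part in these results was not tested. In bulk samples a change in the cells present and a change of RNA per cell cannot be told apart. Of 10 neuroendocrine markers tested, 9 rose at day 90 and 0 fell, with a median of 3.21, and their summed signal went from between 1445 and 1607 in the controls to between 20442 and 26927. Scg2, a granin of secretory granules, had mean signals of 147 in the controls, 1285 at day 60 and 11606 at day 90. All 5 smooth muscle markers fell (summed signal 6319 to 7575 in the controls, 1992 to 2732 at day 90), as did 3 of 4 parietal and chief cell markers (8513 to 29161 against 1700 to 2401), 2 of 3 surface and mucous neck cell markers (32316 to 43894 against 18868 to 23259) and 7 of 9 squamous epithelium markers (15349 to 23091 against 865 to 8819).

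Immune markers moved less. None of 3 B and plasma cell markers (summed signal 6633 to 7106 in the controls, 6339 to 6933 at day 90) and none of 8 macrophage and granulocyte markers (2722 to 5614 against 2105 to 4999) passed, no T cell marker was bright enough to be tested, and of 6 fibroblast and matrix markers 2 rose and 1 fell.

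The rest of the translation machinery was read beside the ribosomal proteins at day 90 against control. Of 33 mitochondrial ribosomal protein genes, which build the separate ribosome of that organelle, 0 rose and 9 fell, with a median of -0.28 and 28 of the 33 below 0. Mrpl42 fell by 1.03 ± 0.17 and Mrps21 by 0.80 ± 0.18 (adjusted p = 0.00394 and 0.0128). The background for falls is 9.17% of all probes and 20.6% of probes with a mean signal above 1000, as given above. The median was -0.25 with 9 falls under the 75th percentile and -0.17 with 4 falls in the deposited values, so the direction held under each scaling. Whether this differed from the cytosolic genes was not tested.

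Among 12 other ribosome-bound or TOP mRNA genes, 3 rose and 1 fell, with a median of 0.28 beside -0.04 for all probes. Under the 75th percentile 2 rose and the median was 0.23 beside -0.12, and in the deposited values 2 rose and 0 fell and it was 0.18 beside 0.14. Rpl22l1, a paralog of Rpl22, rose by 0.85 ± 0.16 and Tpt1, a classical TOP gene, by 0.58 ± 0.16, while Rpl7l1 fell by 0.56 ± 0.13. Fau, which encodes a small subunit protein fused to a ubiquitin-like one, differed by -0.13 ± 0.12 (adjusted p = 0.507). Rpl7l1 did not pass in the deposited values. Of 6 elongation factors 1 rose, Eef2 by 0.39 ± 0.11, and 1 fell, Eif5a by 0.45 ± 0.14, neither of which passed under the other scalings.

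Of 25 initiation factors and their regulators, 4 rose and 3 fell, with a median of 0.08 beside -0.04 for all probes. In the deposited values 6 rose and 0 fell, with a median of 0.34 beside 0.14 for all probes. The rises under quantile normalization were Eif4g2, an initiation factor without a cap-binding partner, by 1.00 ± 0.15, Eif3m by 0.70 ± 0.16, Eif1 by 0.67 ± 0.16 and Eif4g3 by 0.58 ± 0.15. Eif4ebp2, a repressor of cap-dependent initiation that mTORC1 inactivates, fell by 0.66 ± 0.17. The rise of Eif1 did not pass under either other scaling. Of 34 ribosome biogenesis genes only Ncl, the nucleolar protein nucleolin, rose (0.43 ± 0.12), and only Fcf1 fell, by 0.57 ± 0.15, under quantile normalization. The median was -0.10 beside -0.04 for all probes. It was -0.03 beside -0.12 under the 75th percentile and 0.11 beside 0.14 in the deposited values.

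Of 4 kinases that act on ribosomal protein S6 or lie next to them, Rps6ka2 rose by 0.83 ± 0.14. Of 5 p53 genes and targets Zmat3 rose by 0.71 ± 0.12, with a median of -0.17. Of 12 proliferation genes 3 rose, Pcna by 1.22 ± 0.16, Ccnb1 by 1.10 ± 0.28 and Rrm2 by 1.05 ± 0.25, with a median of 0.18.

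**Figure D5:**
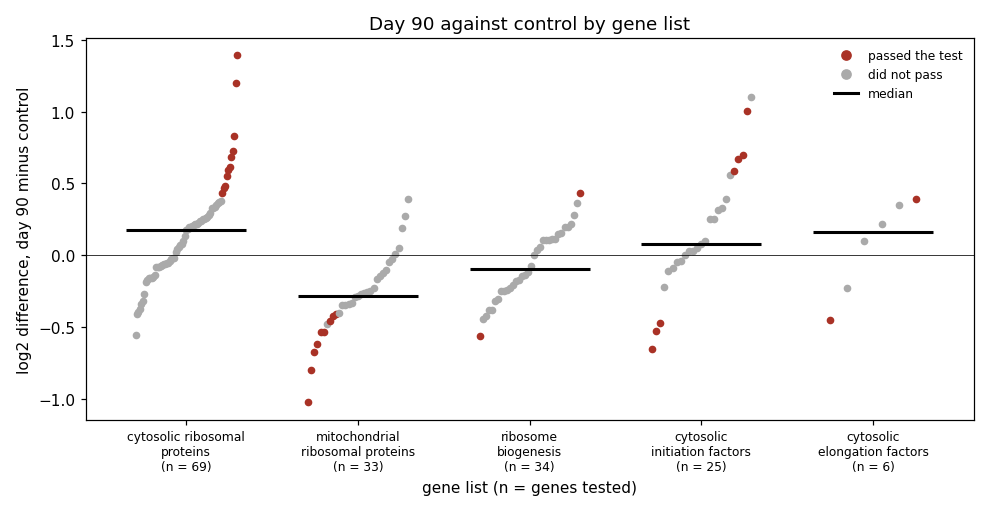
Log2 difference between day 90 and control (y axis) of each tested gene in 5 lists of the translation machinery (x axis), with red points past the threshold and a black line at the median. Mitochondrial ribosomal protein genes have a median of -0.28 with 9 falls, and the cytosolic ones 0.18 with 11 rises under quantile normalization.

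The earlier ages show when the members moved. At day 30 against control 0 of 69 members passed with limma, and 0 had an unadjusted p below 0.05. Of all probes 0 passed (0%), with 433 higher and 454 lower at an unadjusted p below 0.05. The members' median was -0.04, with 26 above and 43 below 0. The smallest p-values belonged to Rpl18 (-0.24 ± 0.12), Rps6 (-0.42 ± 0.27) and Rps15a (0.21 ± 0.13), each with an adjusted p of 0.999. The 3 day 30 mice were spread widely in Rps6, with mouse 1 at the level of the controls and the other two lower.

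At day 60 against control 2 members rose, Rps6 by 1.08 ± 0.17 and Rpl30 by 1.02 ± 0.16 (adjusted p = 0.0338 for both), and the dimmer Rps9 probe rose by 1.03 ± 0.12 (adjusted p = 0.0193). This was 2.90% of the members beside 0.856% of all probes, 0.847% being rises. Rpl36al differed by 0.73 ± 0.16 (adjusted p = 0.0886). The members' median was -0.01, with day 60 arrays all above the controls in 11 members and all below in 12, beside 11.8% and 9.10% of all probes. The 2 calls depended on single arrays, since 0 members passed without control mouse 1, day 60 mouse 2 or day 60 mouse 3, and 1 passed without day 60 mouse 1. Of the 10 neuroendocrine markers 4 had risen by day 60, to summed signals between 3025 and 5736, and of the 12 proliferation genes 2, Pcna and Cenpa.

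From day 30 to day 60 Rps6 was the only member past the threshold, with a rise of 1.50 ± 0.24 (adjusted p = 0.041), beside 0.358% of all probes called. The dimmer Rps9 probe rose by 1.12 ± 0.13 (adjusted p = 0.0219), and Rpl30 differed by 1.01 ± 0.19 (adjusted p = 0.0543). The median over the members was 0.00. No member passed without day 30 mouse 3 or any 1 of the day 60 mice, and 7 passed without day 30 mouse 1.

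From day 60 to day 90 the members already raised did not pass. Rps6 differed by 0.31 ± 0.15 and Rpl30 by 0.18 ± 0.16 (adjusted p = 0.204 and 0.553). Other members passed here. Rps4l, a relative of Rps4x, fell by 0.64 ± 0.11 (adjusted p = 0.00166), from 228, 214 and 215 at day 60 to 149, 131 and 141 at day 90. It had stood at 164, 168 and 203 in the controls, between these groups. Rps13 rose by 0.37 ± 0.12 (adjusted p = 0.0444), from 4603, 5014 and 4411 to 5572, 5894 and 6761, and Rps15a, on a dim probe, by 0.37 ± 0.11 (adjusted p = 0.0439), from 122, 129 and 112 to 141, 165 and 163.

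These 3 calls are 4.35% of the members beside 19.8% of all probes (9.94% higher and 9.83% lower) and 39.0% of the probes above 1000. The members' median from day 60 to day 90 was 0.13 with 56 above 0, but it was -0.05 under the 75th percentile and -0.06 in the deposited values, so no direction is given here either. Rps4l was the only member called without any 1 of the day 60 mice or without day 90 mouse 2 or day 90 mouse 3. Rpl41, the brightest member, measured 22524, 22524 and 18248 at day 60 and 30491, 25475 and 26648 at day 90, a difference of 0.39 ± 0.13 (adjusted p = 0.0553).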

How the data were processed

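The authors deposited 2 tables of intensity values, non-normalized and normalized, for 46116 probes on 12 arrays (3 per group), and neither table holds detection p-values or gene names. Per the study's methods RNA was labelled as biotinylated cRNA. The non-normalized values were corrected by normexp (offset 50), quantile normalized, floored at 32, which moved no value, and put on the log2 scale. The filter kept 22067 probes that exceeded a signal of 100 on 3 or more arrays. A separate limma fit was made per comparison (limma 3.58.1, R 4.3.3, lmFit and eBayes, Benjamini-Hochberg adjustment, threshold 0.05), and the fit was tested on simulated data.

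Genes were named by reading the zero-padded number in a probe ID as an NCBI gene number and matching it to RefSeq (GRCm38.p6), an inference that named 9832 probes. A second probe stood for 8 members. The named members were those past the threshold in any of 5 comparisons, the brightest and dimmest, the paralogs and Rplp0, Rplp1, Rplp2, Rpsa, Rps6, Rpl5 and Rpl11, members with diverging probes and, where none passed, the 3 smallest p-values. From each other list up to 4 called genes were named. The members and lists were chosen with earlier results of these data known. The labels do not say that mouse numbers link animals across groups, nor how the animals were bred, and no slide was given, so no slide block was run. The number of arrays limits the precision. Alternatives were the background correction, offset, scaling, source table, filter, samples in the fit, spread estimate, the methods' t-test, a replicate block, averaging probes and leaving out each array. A few genes counted in the totals are not reported here by name. A quantile target computed without the members was added after seeing the data.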

Additional observations from a re-analysis of the deposited data

Results flagged for a closer look

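Between consecutive ages, 5 results differed by the test of the difference itself. Rps6 rose by 1.50 and the dimmer Rps9 probe by 1.12 on the log2 scale from day 30 to day 60. From day 60 to day 90, Rps13 and Rps15a rose by 0.37 each and Rps4l fell by 0.64. Of these, the fall of Rps4l passed under all 18 alternatives, the rise of Rps6 under 8 of 18, that of the Rps9 probe under 7 of 17, that of Rps13 under 6 of 18 and that of Rps15a under 7 of 16. The rises of Rps6, the dimmer Rps9 probe and Rps13 passed under neither the 75th percentile nor the deposited values. The dim Rps15a probe could be tested under 16 alternatives only, and the deposited values were not among them.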

How the results depend on the processing

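Of the 11 members called at day 90 against control, 3 (Rps6, Rpl30 and Rpl12) passed under all 18 alternatives, Rpl36al under 17 and Rpl6 under 15. The count was 7 in the deposited values, 5 with the methods' t-test after adjustment, 7 with the replicate block, 16 (13 higher and 3 lower) with 1 fit of all 4 groups and 4 to 10 leaving out 1 array, and the members' median was -0.10 under the 75th percentile and -0.037 in the deposited values, where the median of all probes was 0.14. Rps9 turned to 0.56 where its probes were averaged. At day 60 against control the count was 0 with the t-test, 0 with the block and 0 to 2 leaving out 1 array. From day 30 to day 60 it was 2 without background correction, 3 with no filter, 3 with 1 fit of 4 groups, 3 with a trended and robust spread, 0 with an offset of 16, the 75th percentile, the deposited values, a filter at 200, the t-test or the block, and 0 to 7 leaving out 1 array. From day 60 to day 90 it was 1 with no filter, 6 with a filter at 200, 5 with a trended spread, 1 with the block, 6 with quantile targets that left the members out, and 1 to 4 leaving out 1 array, and the median was -0.055 under the 75th percentile and -0.056 in the deposited values. The cause was not tested. Of 1611 values under alternatives, which include the medians of all probes, 1471 were counted as unchanged, 109 no longer passed and 29 newly passed. Of the rest, 1 changed sign with a pass in 1 of its settings, and 1 median moved. A value that passed under neither setting was counted as unchanged whatever its sign. Only a result that was called at first could be counted as no longer passing. The unchanged count is thus mostly of results that were never called, and does not measure how firm the calls were. Same-numbered mice did not deviate together (correlations from -0.43 to 0.36), so the numbers were not taken as pairs. The scalings of the other gene lists were tried after seeing the data. The offset makes folds of dim probes too small.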
